A study of Homo sapiens with 6 samples.

Results

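The genes described are the 3 fibrinogen chains (FGA, FGB and FGG), 5 clotting factors (F2, F5, F7, F10 and F11) and 2 anticoagulant proteins (PROC and PROS1). Each was taken as the row of the deposited table that carries its symbol, and every symbol occurred once, so the group holds 10 of the table's 78304 genes. The libraries are poly(A) RNA sequencing of Huh7, an established human liver cancer cell line, labelled wild type in all samples. Cells were seeded for 24 h and then kept for 24 h with DMSO, the control (3 libraries), or with the compound 16'-DEC (3 libraries); the dose is not in the labels, and the compound is known here only by its code. The study asked which transcripts differed after 16'-DEC, in work on how it acts against liver cancer. Nothing in the labels ties the replicates to separate cultures, and p-values here reflect no more than the spread of these libraries, which may be technical.

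Blood clotting is a chain of proteases made mostly by hepatocytes and secreted as inactive precursors. It ends when thrombin, the active form of the F2 product, cuts fibrinogen into fibrin, and it is held back by protein C and its cofactor protein S, which destroy activated factors V and VIII. Prothrombin, factors VII and X, protein C and protein S share an N-terminal Gla domain, whose glutamates are carboxylated in a vitamin K-dependent step so that the proteins can bind calcium and membranes. Fibrinogen is built from 2 copies each of the alpha, beta and gamma chains, which are encoded side by side on chromosome 4, and its genes are known as liver-specific and as responsive to interleukin-6.

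Levels are in TPM, which are scaled by transcript length and to a fixed sum per library, so that levels of different genes can be compared but absolute depth is not known. The sum of all 10 genes was 1743 ± 72.3 TPM in DMSO and 883 ± 27.5 TPM with 16'-DEC (mean ± SD, n = 3 libraries, as for all means that follow). Single genes were tested with limma on log2(TPM + 1) among the 14275 genes whose mean reached 1 TPM, with Benjamini-Hochberg adjustment over all of them and a threshold of 0.05; each log2 change is 16'-DEC minus DMSO on that scale, with its SE, and each adjusted p comes from this fit. All 10 genes passed the filter on low values. With 16'-DEC, 7 of the 10 fell, where 48.9% of all tested genes fell, and 1 rose, where 22.7% rose; F2 and PROC did not pass. The median change was -0.84 over the 10 genes and -0.31 over all tested genes. At least 2-fold reductions were called for 5 of the 10 genes, against 23.7% of tested genes. In all 10 genes the libraries of the groups did not overlap, which was also so for 75.3% of tested genes; 8 of the 10 lay lower (51.0% of tested genes) and 2 higher (24.3%). In bulk libraries, fewer cells that express a gene and less of its RNA per cell cannot be told apart.

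**Figure D1:**
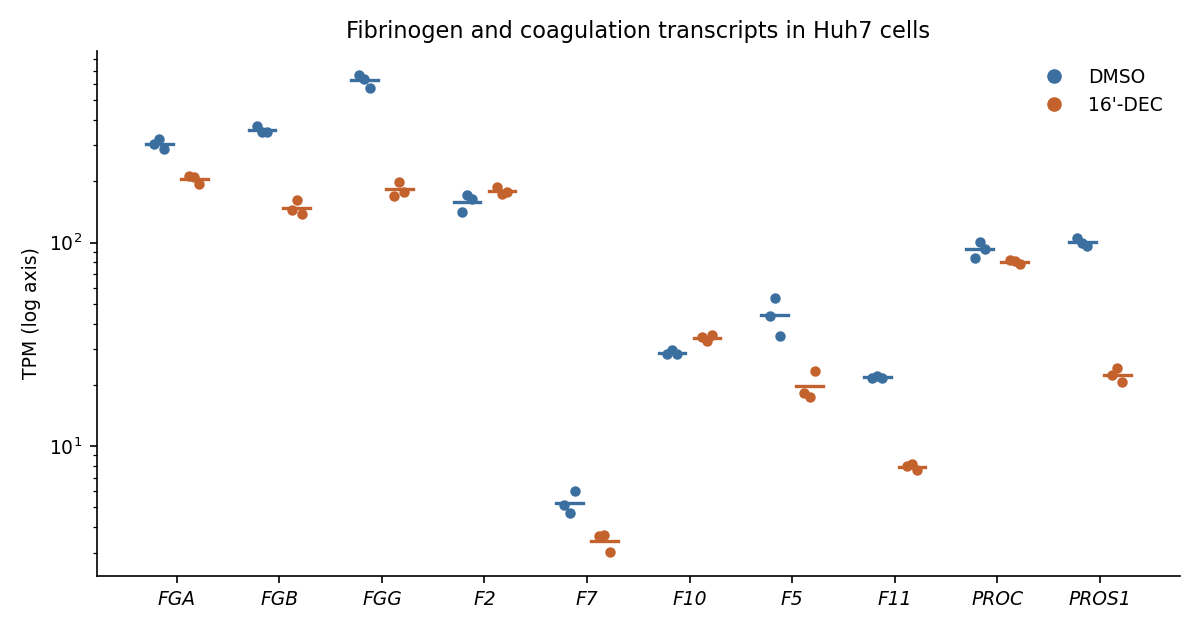
TPM of each gene (log axis) in the 3 DMSO (blue) and 3 16'-DEC (orange) libraries; each point is a library and each short line a group mean. FGG is highest in DMSO at 627 TPM and PROS1 falls furthest, from 100.5 to 22.4 TPM, while F2 and F10 lie slightly above DMSO.

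The values of all genes moved with 2 features of the libraries, and their part in the results was not tested. First, the median gene lay below 0: median-of-ratios scaling moved it to -0.01 and quantile normalization to 0.11. Under the first, 6 of the 10 genes were lower and 2 higher, against 37.7% and 37.1% of tested genes, and under the second the members' counts were the same, against 33.3% and 42.0%. Second, changes followed the GC content of the transcript: tested genes from 40% to 45% GC had a median change of -0.86 and 79.7% of them fell, while those from 55% to 60% had a median of 0.22 and 16.3% fell. The group splits across these ranges, with FGA, FGB, FGG, F11 and PROS1 in the first, F2, F7, F10 and PROC in the second, and F5 at 45.5%. An adjustment that removes each library's trend on GC content and transcript length (and re-centres each library) left 6 of the 10 genes lower and 1 higher, against 31.7% and 34.5% of all tested genes. The same adjustment without re-centring, an alternative chosen after seeing the data, called all 10 genes lower, where it called 57.8% of tested genes lower and 13.5% higher. The values of the re-centred form are given as GC-adjusted beside each gene.

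The fibrinogen chains fell by unequal amounts. FGG, the gamma chain, which carries sites for fibrin crosslinking and platelet binding (ENSG00000171557, chromosome 4, 154604134 to 154612967, minus strand; GRCh38, GENCODE 29, as for all genes), was at 669, 637 and 576 TPM in the DMSO libraries and at 170, 199 and 178 TPM with 16'-DEC. Its highest treated library lay far below its lowest DMSO library, and the mean fell from 627 ± 47.1 to 182 ± 15.0 TPM (log2 change -1.78 ± 0.0858, adjusted p = 3.51e-07; GC-adjusted -0.91). FGB, the beta chain, whose peptide thrombin also cuts off (ENSG00000171564, 154562956 to 154571086, plus strand), was at 376, 349 and 351 TPM in DMSO and at 144, 162 and 138 TPM with 16'-DEC. It fell to 41.2% of its DMSO mean (-1.28 ± 0.0792, adjusted p = 1.25e-06; GC-adjusted -0.36). FGA, the alpha chain, whose cleavage by thrombin starts fibrin assembly (ENSG00000171560, 154583126 to 154590766, minus strand), was at 306, 322 and 288 TPM in DMSO and at 212, 209 and 194 TPM with 16'-DEC. It fell to 67.1% of its DMSO mean (-0.57 ± 0.0721, adjusted p = 9.87e-05), the smallest change of the 3 chains. FGA is the chain whose direction depended on the adjustment: GC-adjusted, it was called higher (0.23, adjusted p = 0.00902, limma), although it stayed lower where the same adjustment kept each library's mean (-0.16, adjusted p = 0.0483).

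Because a ratio of 2 genes within a library does not depend on how that library is scaled, the chains were also set against each other. FGG was the most abundant chain in each DMSO library, and FGA in each 16'-DEC library. The ratio of FGA to FGG was 0.457, 0.506 and 0.501 in DMSO and 1.25, 1.05 and 1.09 with 16'-DEC, so the order of both chains turned in every library. On the log2 scale this ratio rose from -1.04 ± 0.0805 to 0.17 ± 0.13, a difference of 1.21. The ratio of FGB to FGG went from 0.574 ± 0.0322 to 0.81 ± 0.0366, and that of FGA to FGB from 0.852 ± 0.0609 to 1.39 ± 0.0913, again with no overlap. Each of the 5 ratios tested, including both given further on, had an exact 2-sided permutation p of 0.1, the smallest that 3 against 3 libraries allow, and an adjusted p of 0.1 over the 5. The 3 chains have similar GC contents, from 41.4% to 43.4%, and after GC adjustment the FGA to FGG difference was 1.14 and that of FGB to FGG 0.56. As a share of the 3-chain sum, FGA made up 23.7% ± 0.995 in DMSO and 38.3% ± 1.82 with 16'-DEC, FGG 48.5% ± 1.08 and 34.1% ± 1.5, and FGB 27.8% ± 1.1 and 27.6% ± 0.713. The sum itself went from 1291 ± 68.9 to 535 ± 31.1 TPM. Levels of different chains rest on the gene lengths behind TPM, which no source used here gives; the change of a ratio between groups does not.

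**Figure D2:**
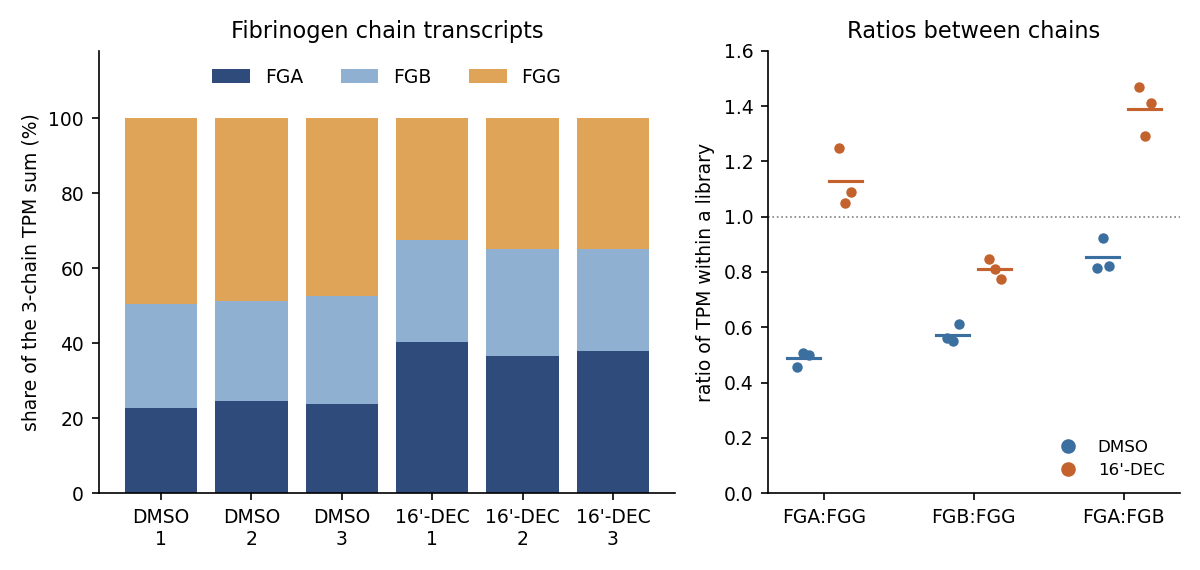
Left, share of each chain in the summed TPM of FGA, FGB and FGG, 1 stacked bar per library. Right, ratios of TPM within each library (points) with group means (lines); the dotted line marks equal levels. FGA:FGG lies between 0.457 and 0.506 in DMSO and between 1.05 and 1.25 with 16'-DEC.

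The 120 bases before the RefSeq start of each chain gene (GRCh38.p14, read on the gene's strand, 5′ to 3′) are shown because these neighbouring genes fell together but unequally. Capitals mark matches to 3 motifs on either strand: GTTAAT (part of the site of HNF1, a hepatocyte factor), CTGGGAA (interleukin-6 response element) and TTGCNNAA (C/EBP site).
FGA, chr4:154590743-154590862, minus strand: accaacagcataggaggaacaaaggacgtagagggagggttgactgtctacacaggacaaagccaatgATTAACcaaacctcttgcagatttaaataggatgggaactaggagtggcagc
FGB, chr4:154562860-154562979, plus strand: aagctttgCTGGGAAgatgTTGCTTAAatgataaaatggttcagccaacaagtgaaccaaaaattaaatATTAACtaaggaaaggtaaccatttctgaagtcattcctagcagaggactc
FGG, chr4:154612657-154612776, minus strand: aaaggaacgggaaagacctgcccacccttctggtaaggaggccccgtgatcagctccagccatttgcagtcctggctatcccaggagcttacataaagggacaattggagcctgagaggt
FGB held all 3 motifs in this stretch, and FGA held the HNF1 letters at nearly the same distance, its first base 52 bases before the start against 51 in FGB. Over the full 250 bases before the start, FGA also had a C/EBP match (141 bases before) and FGG an interleukin-6 element (161 bases before), both outside the stretch shown. Among the other 7 genes, F2 matched the HNF1 letters and F10 the interleukin-6 element. These motifs occur in 6.23%, 9.15% and 9.05% of 35116 promoter windows of the same length; a longer HNF4 site (CAAAGTCCA, 0.325% of windows) and the TATA letters TATAAA (10.7%) matched in 0 of the 10. No matches overlapped. A match is a description of letters, not of a bound site.

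The vitamin K-dependent genes divided. PROS1 fell, F7 fell less, F2 and PROC did not pass, and F10 rose. The coding stretches around the Gla-domain codons that all of these genes share are shown because they hold the same protein feature in transcripts of unlike base composition. Each runs over 63 coding bases of the GENCODE 29 transcript used for GC content, and capitals mark the 3 codons, for glutamate, glutamate and cysteine, that a search of the translated sequence found in every gene.
F2, coding bases 154 to 216: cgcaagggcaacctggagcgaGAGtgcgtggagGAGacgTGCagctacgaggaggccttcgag
F7, coding bases 205 to 267: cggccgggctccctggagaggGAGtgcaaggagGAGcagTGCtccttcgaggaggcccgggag
F10, coding bases 145 to 207: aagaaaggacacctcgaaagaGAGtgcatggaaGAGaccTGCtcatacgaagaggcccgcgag
PROC, coding bases 151 to 213: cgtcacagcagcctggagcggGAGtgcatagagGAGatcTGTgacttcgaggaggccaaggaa
PROS1, coding bases 148 to 210: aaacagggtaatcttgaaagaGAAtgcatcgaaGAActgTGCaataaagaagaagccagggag
PROS1 writes both glutamates as GAA and the other genes write them as GAG, and the stretch is 41.3% GC in PROS1 against 54% to 71.4% in the others. At the last position of the codons over the whole coding sequence, GC content was 34.9% in PROS1 and 73.3% to 83.3% in F2, F7, F10 and PROC.

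Among the procoagulant genes of this kind, F2, which encodes prothrombin (ENSG00000180210, chromosome 11, 46719180 to 46739506), was at 141, 171 and 164 TPM in DMSO and at 189, 174 and 178 TPM with 16'-DEC. The treated libraries were all higher, although the nearest pair stood at 171 and 174 TPM, and the change of 0.18 ± 0.0862 did not pass (adjusted p = 0.0833). F2 passed as higher with median-of-ratios scaling (0.53) and quantile normalization (0.29), was at -0.11 GC-adjusted, and was called lower where that adjustment kept library means (-0.49). F7, which encodes the factor that starts clotting when it meets tissue factor (ENSG00000057593, chromosome 13, 113105788 to 113120681), was the least abundant of the 10, at 5.14, 4.70 and 6.01 TPM in DMSO and 3.61, 3.65 and 3.03 TPM with 16'-DEC. It fell by 0.50 on the log2(TPM + 1) scale, which understates changes at such levels (SE 0.12, adjusted p = 0.00468; GC-adjusted -0.67), but did not pass with median-of-ratios scaling and was at 0.03 with quantile normalization. F10, which encodes the precursor of the protease that activates prothrombin (ENSG00000126218, chromosome 13, 113122814 to 113149529), was at 28.5, 29.8 and 28.2 TPM in DMSO and 34.2, 32.7 and 35.2 TPM with 16'-DEC. It rose by 0.23 ± 0.0743 (adjusted p = 0.0196), but did not pass without DMSO replicate 3 or 16'-DEC replicate 1 (highest adjusted p 0.0649, limma). F10 was at -0.08 GC-adjusted (adjusted p = 0.311, limma) and was called lower where library means were kept (-0.46).

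F7 and F10 lie head to tail, 2132 bases apart on the same strand, and have like GC contents (57.4% and 59.3%). The ratio of F10 to F7 was 5.53, 6.35 and 4.69 in DMSO and 9.49, 8.96 and 11.6 with 16'-DEC. The log2 difference was 0.86 on TPM and 0.74 on TPM + 1. It was 0.60 after GC adjustment, which starts from log2(TPM + 1), so the pseudocount made part of that drop. F10 and F7 therefore differed in their change by more than the spread between libraries, with no overlap of the ratio. PROZ, the next gene on from F10 and another vitamin K-dependent protein, fell from 4.22 ± 0.46 to 3.02 ± 0.151 TPM (-0.37, adjusted p = 0.0147), but was at 0.16 with quantile normalization. On the strand of F10 lies the pseudogene KARSP2 (mean 3.08 TPM in DMSO and 1.13 TPM treated), and on the other strand AL137002.2 (4.27 and 3.02 TPM). Both overlap the span of F10, and whether they share exon bases with it was not examined. No strand marking is described for these libraries, so strand could not separate any reads shared with AL137002.2.

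The cofactor and the contact-pathway protease both fell. F5, which encodes the cofactor that speeds prothrombin activation (ENSG00000198734, chromosome 1, 169514166 to 169586588), was at 43.6, 53.5 and 34.7 TPM in DMSO and 18.1, 17.4 and 23.4 TPM with 16'-DEC. Its change had the largest SE of the 10 genes on the log2(TPM + 1) scale, but its lowest DMSO library still lay above its highest treated one (-1.11 ± 0.164, adjusted p = 2.71e-04). After GC adjustment F5 was at -0.52 and did not pass (adjusted p = 0.0773). F11, which encodes a protease that activates factor IX (ENSG00000088926, chromosome 4, 186265945 to 186288806), was at 21.5, 22.0 and 21.7 TPM in DMSO and 7.99, 8.15 and 7.62 TPM with 16'-DEC. Both groups were tight, and the mean fell to 36.4% of DMSO (-1.35 ± 0.079, adjusted p = 9.08e-07; GC-adjusted -0.84). F11 was called lower under every alternative run. KLKB1, the prekallikrein gene next to F11 on the same strand, was at 0.288 ± 0.127 and 0.106 ± 0.14 TPM, too low to be tested, and the antisense gene F11-AS1 stayed under 1 TPM in every library.

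The libraries of both anticoagulant genes lay lower with 16'-DEC, and only PROS1 passed the test. PROS1, which encodes protein S (ENSG00000184500, chromosome 3, 93873033 to 93980003), was at 106, 99.3 and 96.6 TPM in DMSO and 22.3, 24.2 and 20.6 TPM with 16'-DEC. This was the strongest reduction among the 10, to 22.3% of the DMSO mean (-2.12 ± 0.084, adjusted p = 1.72e-07; GC-adjusted -0.96), and it was called under every alternative run. Its near copy, the pseudogene PROS2P, was listed at 0 in all 6 libraries, though reads that fit both copies could still be split by the counting. PROC, which encodes protein C (ENSG00000115718, chromosome 2, 127418427 to 127429246), was at 84.4, 101 and 92.9 TPM in DMSO and 81.8, 80.9 and 78.7 TPM with 16'-DEC. The treated libraries were all below the DMSO ones, but the change of -0.20 ± 0.082 did not pass (adjusted p = 0.0533). PROC passed as lower without DMSO replicate 1 (adjusted p = 0.0152) and GC-adjusted (-0.52, adjusted p = 3.75e-05, limma), and was at 0.15 with median-of-ratios scaling. The ratio of PROS1 to PROC was 1.25, 0.982 and 1.04 in DMSO and 0.273, 0.30 and 0.262 with 16'-DEC. Its log2 difference of -1.97 shrank to -0.44 after GC adjustment, and the groups did not overlap on the values as deposited.

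**Figure D3:**
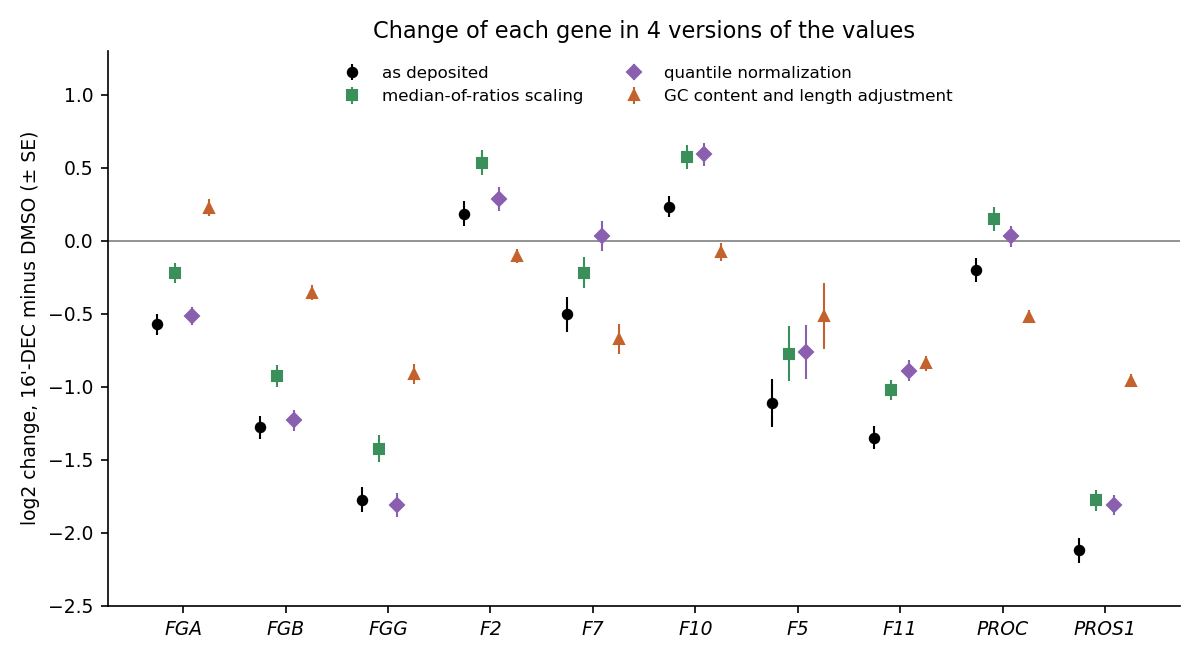
Log2 change of each gene (16'-DEC minus DMSO, points, with SE as bars) from values as deposited, after median-of-ratios scaling, after quantile normalization and after the GC content and length adjustment. FGB, FGG, F5, F11 and PROS1 lie below 0 in all 4 versions, and FGA, F2, F7, F10 and PROC change side in at least 1.

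Ordered by change, the genes fell into the same order as their GC content to a large extent. Over the 10 genes, which share libraries and are not replicates, Spearman's rho between GC content and change was 0.879, and 0.394 after the adjustment. Within the range of 40% to 45% GC, where the interquartile range of tested genes ran from -1.32 to -0.43, PROS1, FGG and F11 lay below that range, FGB inside it near its lower end and FGA inside it above the median. Within 55% to 60% GC, where it ran from -0.13 to 0.56, F2 and F10 lay inside it, and PROC and F7 below it. F5, just above 45% GC, lay below the interquartile range of its own GC range (-0.75 to 0.08).

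**Figure D4:**
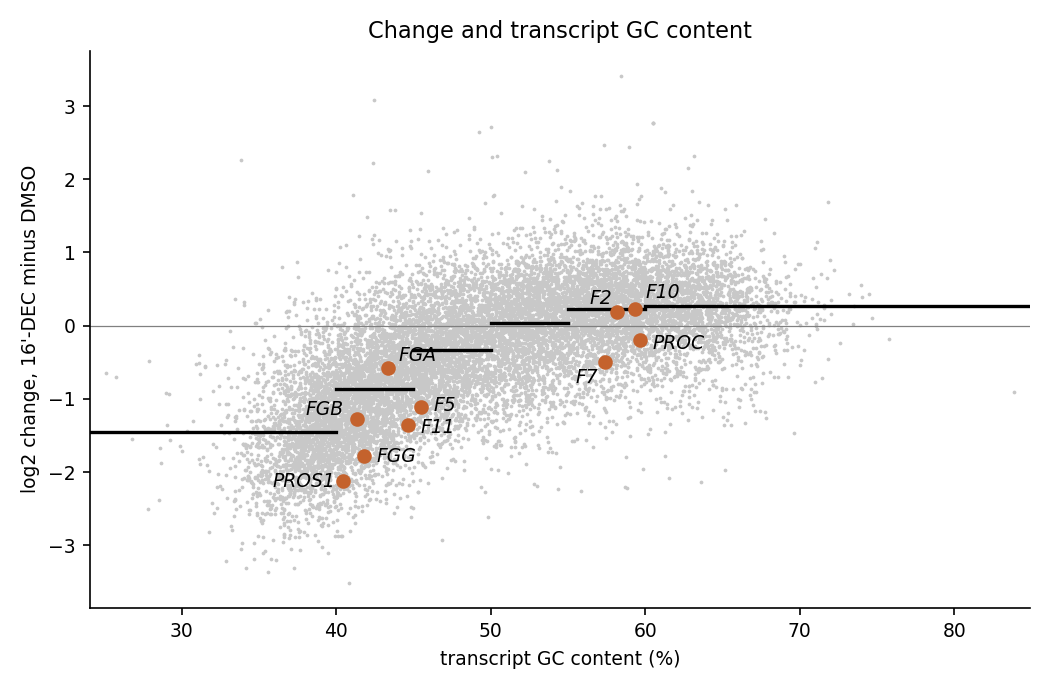
Log2 change against transcript GC content. Grey points are the 13291 tested genes with a GC value, black lines the median change within each GC range and orange points the 10 genes. FGA and F10 lie above the median of their GC range, and the other 8 genes below it.

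Of 9 other procoagulant genes, 8 had a mean under 1 TPM, among them F9 (0.0283 ± 0.0126 TPM in DMSO and listed at 0 in all treated libraries; chosen after its values were seen). The only one tested, F3, which encodes tissue factor, the partner of factor VII, fell from 7.19 ± 0.585 to 2.48 ± 0.232 TPM (-1.24, adjusted p = 1.02e-05; GC-adjusted -0.61). Of the natural anticoagulants, 10 of 11 were tested, with 2 higher and 6 lower (median -0.33). TFPI, the inhibitor of tissue factor and factor X, fell from 1633 ± 141 to 591 ± 19.4 TPM (-1.46, GC-adjusted 0.16), C4BPA, a chain of the protein that binds protein S, by 0.48 (GC-adjusted 0.19), SERPINA10, the inhibitor that works with protein Z, by 0.37 (GC-adjusted 0.73) and SERPINA5, the protein C inhibitor, by 0.32. SERPINC1 (antithrombin) rose from 35.6 ± 1.67 to 49.4 ± 1.0 TPM (0.46, GC-adjusted 0.55) and SERPIND1 (heparin cofactor II) by 0.21. After GC adjustment this list had 6 higher and 2 lower, and with median-of-ratios scaling 3 and 1, so the balance of this list turned with the scaling.

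Most tested genes of fibrinolysis, the removal of clots by plasmin, rose. Of 11, 7 were tested, with 4 higher and 2 lower (median 0.72; the same counts after GC adjustment, where the median over all tested genes was 0.02). S100A10 (187 ± 26.2 to 477 ± 20.5 TPM, 1.35) and ANXA2 (448 ± 11.7 to 737 ± 23.5 TPM, 0.72), which together hold plasminogen at the cell surface, rose, as did PLAUR, the urokinase receptor (1.28). CPB2, whose active product slows fibrinolysis, fell by 1.76 (GC-adjusted -0.73) and SERPINF2, the plasmin inhibitor, by 0.30 (GC-adjusted -0.62, and 0.05 with median-of-ratios scaling). The 4 genes not tested were under 1 TPM.

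Genes that modify and export clotting factors went both ways. Of 11 tested, 6 rose and 2 fell (median 0.28), and after GC adjustment 8 were higher and 3 lower. P4HB, the disulfide isomerase, rose by 1.04, NQO1, a quinone reductase that can reduce vitamin K, from 1009 ± 66.8 to 1832 ± 33.7 TPM (0.86) and VKORC1, the warfarin target that recycles vitamin K, from 78.0 ± 4.75 to 140 ± 5.01 TPM (0.84; adjusted p from 3.12e-06 to 1.04e-05 for these 3). LMAN1 and MCFD2, which form the receptor that carries factors V and VIII out of the endoplasmic reticulum, fell from 166 ± 6.99 to 60.8 ± 7.19 TPM (-1.44, GC-adjusted -0.13) and from 324 ± 8.49 to 174 ± 20.9 TPM (-0.90, GC-adjusted -0.17). Among other vitamin K-dependent proteins only 2 of 9 were tested, PROZ and PRRG1, and both fell; PRRG1 (-1.09) was at 0.40 GC-adjusted. Among 16 proteins with a fibrinogen-related domain 4 were tested, with FGL1, a liver-secreted relative of the fibrinogen chains, lower (344 ± 19.1 to 199 ± 5.97 TPM, -0.78; GC-adjusted -0.03) and FIBCD1 higher (0.65; its groups overlapped, and it did not pass GC-adjusted at 0.52).

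Factors known to act on these genes in liver also went both ways. Of 18 regulators 17 were tested, with 6 higher and 7 lower (median 0.20), and 5 and 7 after GC adjustment. IL6ST, the signalling subunit of the interleukin-6 receptor, fell from 117 ± 8.44 to 21.6 ± 3.99 TPM (-2.40, GC-adjusted -0.80) and NR1H4, the bile acid receptor FXR, from 64.0 ± 6.62 to 15.1 ± 1.01 TPM (-2.01, GC-adjusted -0.92). NR2F2 fell by 1.58 and FOXA1 by 1.20 (GC-adjusted -1.33 and -1.15; adjusted p from 3.60e-07 to 5.61e-06 for these 4). FOXA3 rose by 0.62 (GC-adjusted 0.28) and CEBPB, a mediator of the acute phase, by 0.41 (GC-adjusted 0.13, which did not pass). The labelled cell type was checked on 12 hepatocyte markers: all were expressed, and 5 rose and 5 fell (median -0.03). Their summed level was 24590 to 25600 TPM in DMSO and 27760 to 28580 TPM with 16'-DEC. Its largest part was APOA2, at 7692 ± 515 TPM in DMSO and 12700 ± 542 TPM with 16'-DEC. The higher sum therefore does not describe the 12 markers as a set. The changes of HP, APOH, AFP and APOB were -1.21, -0.86, -1.50 and -1.74 (GC-adjusted -1.15, -0.13, -0.27 and -0.87), and those of APOA2 and RBP4 0.72 and 0.61 (GC-adjusted 0.66 and 0.34).

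**Figure D5:**
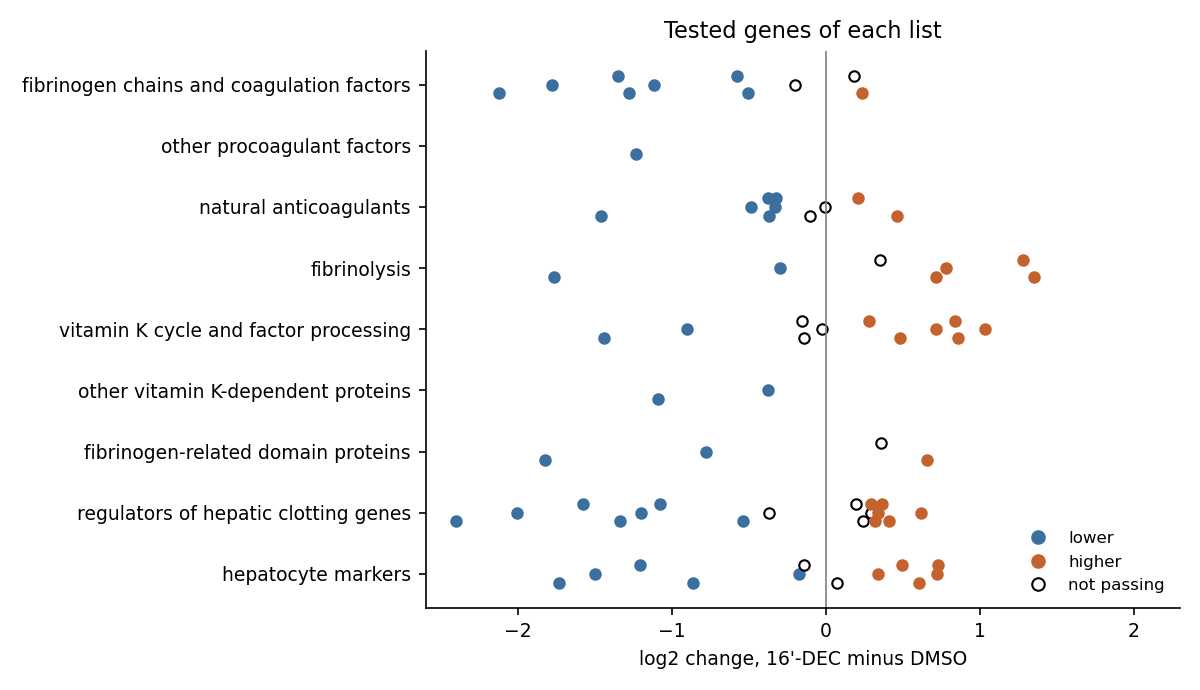
Log2 change (16'-DEC minus DMSO) of every tested gene in the 10-gene group and in 8 related lists; blue points fell, orange points rose and open circles did not pass. The 10 genes run from -2.12 (PROS1) to 0.23 (F10), and fibrinolysis genes from -1.76 (CPB2) to 1.35 (S100A10).

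Markers of other cells were at or near 0 for endothelium, platelets and fibroblasts: no gene of these 3 lists of 5 had a mean of 1 TPM, and their summed levels were 0.209 to 0.526, 0.226 to 2.05 and 0.128 to 0.614 TPM in DMSO and 0.319 to 0.722, 0.246 to 0.388 and 0.067 to 0.258 TPM with 16'-DEC. GP9 and DCN were at 0 throughout. Of 5 leukocyte markers, CD3E was at 0, PTPRC was at 0.429 ± 0.639 and 0.0217 ± 0.0164 TPM, and LYZ made up nearly all of a summed level of 1656 to 1828 TPM in DMSO and 877 to 996 TPM with 16'-DEC. LYZ fell by 0.98 (GC-adjusted -0.07), and CD68 rose by 1.22. The part of these cells in the results was not tested.

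Genes next to the members on the chromosome gave the following values. PLRG1, 12520 bases from FGB, had means of 104 and 95.8 TPM and failed the test (-0.11, adjusted p = 0.283), while GC-adjusted it was called higher (1.14). On the other side of the cluster LRAT was listed at 0. Beside PROC, MAP3K2 and IWS1 fell by 1.98 and 0.92 (GC-adjusted -0.30 and -0.64). Beside F2, CKAP5 fell by 0.92 (GC-adjusted -0.17) and ZNF408 rose by 0.60 (GC-adjusted 0.29). Beside F5, SLC19A2 fell by 1.22 (GC-adjusted -0.15) and SELP was listed at 0, and beside F7 MCF2L did not pass (-0.17). AC018709.1, next to F11, and EPHA3, next to PROS1, were at or near 0.

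The genes whose profile over the 6 libraries was most like that of the fibrinogen chains were found among 10183 genes whose mean reached 5 TPM. Those closest to the mean centred profile of the 3 chains on the log2(TPM + 1) scale were MBD4 (Euclidean distance 0.0564), CAAP1 (0.0602), USP12 (0.0653) and EPB41L4B (0.0694). Their changes ran from -1.22 to -1.20. The chains themselves lay farther from their own mean, at 0.789 for FGA, 0.123 for FGB and 0.702 for FGG. With 6 libraries in 2 groups, this likeness rests mainly on the size of the difference between the groups.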

How the data were processed

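The authors deposited 1 table of TPM per gene and library, per the file's own values: each library sums to 1000000 to within rounding. Tools in the submitters' processing notes are, in no stated role, HTSeq 0.6.1, HISAT2 2.0.1, DESeq2 and cutadapt 1.9.1, with the build GRCh38; annotation and gene lengths: not given in the sources used here. Therefore depth is unknown and no counting interval is possible. Per the labels' protocols, RNA was poly(A)-selected and primed at random, with no strand marking described. TPM are relative, so abundant genes that move shift the rest.

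Genes whose mean reached 1 TPM entered a fit of log2(TPM + 1) by limma 3.58.1 (R 4.3.3, mean trend, 2-sided), all 6 libraries, no block; the fit was tested on simulated data. Ratios between genes used TPM within a library and an exact permutation test. GC content, length and positions came from 1 GENCODE 29 transcript per gene (APPRIS principal, then basic, then longest), found for 93.1% of tested genes; the adjustment removed natural splines (5 degrees of freedom each). Promoter sequences are from RefSeq, coding sequences from GENCODE; all 10 genes matched. Figures used matplotlib 3.10.9.

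The genes, the 12 related lists and the tests were chosen with earlier results of these data known. Named genes are all 10 members; per list up to 4 of smallest adjusted p in the direction with more calls and up to 2 in the other; the 4 most alike genes; and the neighbouring protein-coding genes. A few genes that this rule names are not reported here. Alternatives were pseudocounts of 0.1 and 5, no filter or 5 TPM, median-of-ratios and quantile scaling, the GC and length adjustment, a block for the replicate number, array weights, no trend, a threshold of 0.01, mitochondrially encoded genes removed, and each library left out in turn; the GC and length adjustment that keeps library means was chosen after seeing the data. Replicate numbers were not taken as a pairing in the main fit, and whether they are one is not known.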

Additional observations from a re-analysis of the deposited data

How the results depend on the processing

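The count of genes that fell was 7 of 10 and ran from 6 to 10 under the 20 alternatives. It could not exceed 10, and the genes counted changed. After GC adjustment FGA and F5 left the count and PROC joined it. Where the adjustment kept library means, F2, F10 and PROC joined it. Of all tested genes, these adjustments called 31.7% and 57.8% lower, in that order. The count that rose was 1; it was 2 with quantile normalization and 2 with median-of-ratios scaling, 0 at a threshold of 0.01 and 0 with the adjustment for GC content and length that keeps library means, and ran from 0 to 2 when single libraries were left out (0 without DMSO replicate 3 or 16'-DEC replicate 1, and 2 without DMSO replicate 2). With the replicate number as a block, the count that rose was 0 and the count that fell 7. Same-numbered libraries had deviations that correlated at 0.0941, -0.182 and -0.0726, and libraries of unlike number at -0.196 to 0.274. No pairing by number was seen, but so few libraries cannot show that there was none. FGB, FGG, F11 and PROS1 were called lower under every alternative, and F5 except after GC adjustment with and without the block. After GC adjustment, with or without the block, FGA was at 0.226, F2 at -0.106, F10 at -0.0755, TFPI at 0.16, C4BPA at 0.194, SERPINA10 at 0.725, PRRG1 at 0.40, CAAP1 at 0.146, USP12 at 0.183 and PLRG1 at 1.14, each opposite to its direction as deposited. Where the adjustment kept library means, the opposite values were -0.492 for F2, -0.462 for F10, 0.339 for SERPINA10, -0.0668 for SERPIND1, 0.0139 for PRRG1, -0.102 for FOXA3, -0.257 for CEBPB, -0.0427 for RBP4, 0.751 for PLRG1 and -0.0972 for ZNF408. With quantile normalization they were 0.0321 for F7, 0.0291 for PROC, 0.0952 for SERPINA10, 0.155 for PROZ, 0.107 for PLRG1 and 0.321 for MCF2L. With median-of-ratios scaling they were 0.148 for PROC, 0.0261 for SERPINA5, 0.0497 for SERPINF2, 0.237 for PLRG1 and 0.142 for MCF2L. The cause of these turns was not tested. All ratios kept their direction. With quantile normalization FGB to FGG was at 0.58 and F10 to F7 at 0.558. After GC adjustment FGA to FGB was at 0.583, F10 to F7 at 0.597 and PROS1 to PROC at -0.437. Both forms start from log2(TPM + 1), and that pseudocount alone moved F10 to F7 to 0.736. Taken by replicate number, all 3 differences had the direction of the mean for each ratio. F7 is left out by the filter at 5 TPM. Depth is unknown, so the precision of low genes such as F7 cannot be given beyond the spread of 3 libraries.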
